A study of Rattus norvegicus with 16 samples.

Results

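The genes described here are 10 members of the VEGF, angiopoietin and apelin systems, the main peptide signals that act on blood vessel endothelium: Vegfa, Pgf, Kdr, Flt1, Angpt1, Angpt2, Tek, Tie1, Apln and Aplnr. They were chosen by name, with earlier results of these data known, so their counts beside the shares of all genes are descriptions only. Each of the 10 was represented by exactly 1 probe set among 29214 on the array, and so by 1 of the 14506 named genes that were tested. The 16 animals were male Sprague-Dawley rats weighing 250 to 300 g, 4 per group, and RNA of each right lung went on 1 array. Normoxia rats breathed ordinary air and received no drug. Hypoxia rats spent 2 weeks at a pressure of 362 mmHg, which corresponds to 10% oxygen at sea level. The estradiol group had the same hypoxia with estradiol, the main circulating estrogen, at 75 µg/kg/day for 3 weeks from implanted pumps. The fulvestrant group had hypoxia, the same estradiol and fulvestrant, a nonselective estrogen receptor antagonist, given under the skin at 3 mg/kg/day. Whether normoxia and hypoxia rats carried empty pumps is not stated, and fulvestrant was not given without estradiol, nor estradiol without hypoxia. The series title names as its subject whether what estradiol does in the hypoxic lung depends on estrogen receptors.

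Vascular endothelial growth factor A, encoded by Vegfa, drives endothelial growth and survival through the receptor Kdr, while Flt1 binds the same ligand tightly, signals weakly and can act as a decoy. Placenta growth factor, encoded by Pgf, binds Flt1 and not Kdr. Angiopoietin-1 from cells around the vessel activates the endothelial receptor Tek and keeps vessels quiet and tight, angiopoietin-2 from endothelium can oppose it, and Tie1 is the partner receptor of Tek. Apelin is a vasodilator peptide whose receptor is Aplnr; in the lung its gene is known as a marker of the large gas-exchange capillary cells called aerocytes, and Aplnr as a marker of the general capillary cells. Vegfa and Apln are textbook targets of hypoxia-inducible factors.

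The lung label was borne out by its markers, with the surfactant genes Sftpc (13.83 to 13.99 over the 16 arrays) and Sftpb (13.74 to 13.95) and the alveolar type 1 gene Ager (13.45 to 13.64) far above the array medians of 7.69 to 7.77, all as log2 RMA values. Endothelium was well represented, with Pecam1 at 12.33 to 12.77 and Cdh5 at 12.12 to 12.38. Normoxia replicate 4 is called normoxia in its title and hypoxia in its treatment field. On the first principal component it stood at -19.7, within the range of the other normoxia arrays (-20.8, -15.0 and -12.0). The hypoxia arrays stood between 1.44 and 16.3. It was kept as normoxia, and values with it counted as hypoxia are given where they change a call. Estradiol replicates 2 and 3 stood apart from the other arrays on the second principal component (-25.4 and -22.3, the others between -5.18 and 7.85). No batch or date is given, and the groups follow the order of submission, so batch and group cannot be told apart. In whole lung, fewer cells of a type and less RNA per cell cannot be told apart either.

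RefSeq promoter windows (assembly GRCr8) were found for 6 of the 10 genes. The 250 bases before the start are printed for Pgf, the member that changed most in hypoxia, and for Apln and Kdr, the members furthest below normoxia in the estradiol group. Capitals mark the letters GGTCA, the core letters of an estrogen receptor site, and ACGTG or GCGTG, cores of a hypoxia response element, on either strand. In the Pgf window GGTCA and GCGTG (as CACGC on the printed strand) overlap.
Pgf, chr6:110557748-110557997, minus strand: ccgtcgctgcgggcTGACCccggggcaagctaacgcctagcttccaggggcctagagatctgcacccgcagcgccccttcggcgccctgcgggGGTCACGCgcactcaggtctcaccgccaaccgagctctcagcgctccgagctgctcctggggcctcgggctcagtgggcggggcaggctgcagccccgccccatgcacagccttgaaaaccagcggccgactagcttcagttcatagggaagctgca
Kdr, chr14:32571813-32572062, plus strand: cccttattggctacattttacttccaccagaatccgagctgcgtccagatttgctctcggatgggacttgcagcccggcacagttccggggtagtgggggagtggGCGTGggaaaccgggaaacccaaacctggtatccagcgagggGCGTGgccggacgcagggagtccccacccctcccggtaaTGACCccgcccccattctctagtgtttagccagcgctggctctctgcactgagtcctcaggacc
Apln, chrX:132091247-132091496, minus strand: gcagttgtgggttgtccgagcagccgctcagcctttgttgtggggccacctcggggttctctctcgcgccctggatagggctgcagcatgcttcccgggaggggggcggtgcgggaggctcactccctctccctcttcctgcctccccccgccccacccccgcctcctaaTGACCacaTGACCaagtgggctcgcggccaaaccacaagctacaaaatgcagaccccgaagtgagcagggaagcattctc
The Apln window held GGTCA 2 times, both on the opposite strand, at 80 to 76 and at 72 to 68 bases before the start, and neither ACGTG nor GCGTG. The Pgf window held GGTCA 2 times and GCGTG 1 time, and the Kdr window GGTCA 1 time and GCGTG 2 times. None of these 3 windows held ACGTG. Over 27457 promoter windows of the same length, GGTCA was found in 35.2%, GCGTG in 27.2% and ACGTG in 16.9%, so a match is common, and it is a description of the letters only.

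In hypoxia against normoxia, which asks what low oxygen alone did, Pgf and Aplnr rose and Angpt1 and Tek fell, so that 4 of the 10 members passed an adjusted p of 0.05 (2 higher, 2 lower), where 5.63% of all genes did (3.21% higher, 2.43% lower). The arrays of the 2 groups did not overlap for 6 members, against 12.1% of all genes. In the estradiol group against hypoxia 1 of 10 passed, Apln, which fell (0.772% of all genes, 0.31% higher and 0.462% lower), and 4 did not overlap (6.65% of genes). In the fulvestrant group against the estradiol group 0 of 10 passed by limma (0.0483% of genes, 0.0207% higher and 0.0276% lower), although 4 had an unadjusted p under 0.05 (14.8% of genes) and 3 did not overlap (9.05%). These 3 were Kdr, Apln and Aplnr, each higher with fulvestrant (4.78% of genes were higher without overlap) and each lower with estradiol than in hypoxia alone. Both comparisons use the estradiol arrays, so their opposite signs are not independent.

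Against normoxia, 5 of 10 members passed in the estradiol group, 1 higher and 4 lower (5.21% of genes, 2.87% higher and 2.34% lower), and 5 did not overlap (9.21% of genes). In the fulvestrant group 3 of 10 passed, 2 higher and 1 lower (2.96% of genes, 1.97% higher and 0.993% lower). In the fulvestrant group 8 of 10 members did not overlap normoxia, against 12.3% of genes. In the fulvestrant group against hypoxia 0 of 10 passed by limma (0% of genes), 0 had an unadjusted p under 0.05 (6.96% of genes) and 0 did not overlap (5.03%). These counts were sensitive to single arrays. Dropping normoxia replicate 1 left a count of 1 in hypoxia against normoxia, and dropping normoxia replicate 4, hypoxia replicate 1 or hypoxia replicate 4 left 2. Calls over all genes fell as well, from 817 to 428 without normoxia replicate 1. They fell to 681 without normoxia replicate 4, 442 without hypoxia replicate 1 and 599 without hypoxia replicate 4. Reading normoxia replicate 4 as a hypoxia array left 0 members, and 40 of all genes. For estradiol against hypoxia it was 0 without hypoxia replicate 1, 2 or 4 or estradiol replicate 2 or 3, and 3 without estradiol replicate 4. Over all genes the fits with 0 made 3 to 7 calls, where the full fit made 112. The fit without estradiol replicate 4 made 355. For fulvestrant against estradiol the member count was 2 without estradiol replicate 4, where calls over all genes rose from 7 to 331. For estradiol against normoxia the member count was 3 without normoxia replicate 1 or estradiol replicate 1. Calls over all genes fell there from 756 to 384 and 662.

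**Figure D1:**
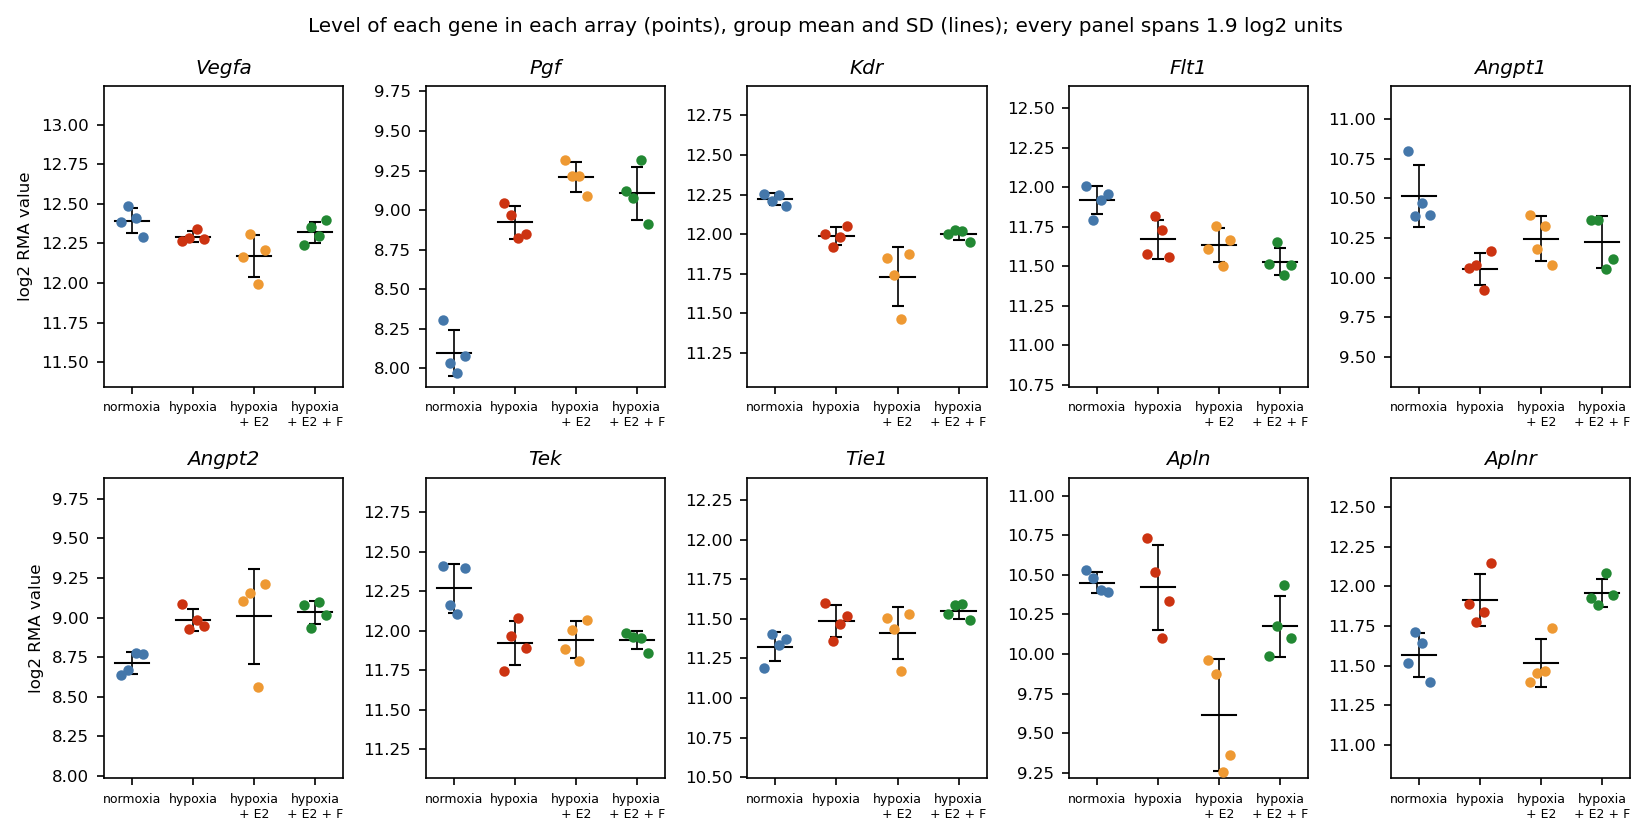
Level of each of the 10 genes (log2 RMA value, vertical axes) in each of the 16 arrays (points) by group, with the group mean and SD (lines, n = 4); E2 is estradiol and F fulvestrant. Every panel spans the same number of log2 units, so heights of differences compare across panels; Pgf stands at 7.97 to 8.30 in normoxia and at 8.82 or more in the other groups, and Apln is lowest in the estradiol group.

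Among the ligands of the VEGF receptors, Pgf rose and Vegfa did not pass. Pgf (probe set 10891240) stood at 8.30, 8.03, 7.97 and 8.08 in the 4 normoxia arrays and at 9.04, 8.97, 8.82 and 8.85 in hypoxia. It was 9.32, 9.21, 9.22 and 9.09 in the estradiol group and 9.12, 9.07, 9.32 and 8.91 in the fulvestrant group. All 12 hypoxic arrays lay above all 4 normoxia arrays. The normoxia mean of 8.10 stood at percentile 42.2 among the genes tested. Hypoxia raised Pgf 1.77-fold (log2 0.82, SE 0.09, limma adjusted p = 7.55e-05). The rise over normoxia was 2.16-fold in the estradiol group (log2 1.11, adjusted p = 2.77e-06) and 2.01-fold in the fulvestrant group (log2 1.01, adjusted p = 9.77e-06). The 4 estradiol arrays also lay above the 4 hypoxia arrays, by 0.29 (SE 0.09), but this did not pass (adjusted p = 0.141). Each of the 3 calls against normoxia was made in all 8 leave-one-out fits of its comparison. The hypoxia call ended when normoxia replicate 4 was read as hypoxia (adjusted p = 0.0932).

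Vegfa (probe set 10921772) differed little between groups. It ranged over 12.29 to 12.49 in normoxia, 12.27 to 12.34 in hypoxia, 11.99 to 12.31 in the estradiol group and 12.24 to 12.39 in the fulvestrant group. The difference of hypoxia from normoxia was -0.10 (95% confidence interval -0.24 to 0.038, adjusted p = 0.421), so the interval lay below the rise seen for Pgf. The lowest mean, 12.17 ± 0.13 (SD, n = 4), was that of the estradiol group, -0.23 from normoxia (SE 0.07, adjusted p = 0.0607). That difference passed without normoxia replicate 4 (adjusted p = 0.0497) or without estradiol replicate 2 (0.0322), without the dimmest genes (0.0471) and with an intensity trend (0.0388). In the order of the levels, normoxia came first, then fulvestrant, hypoxia and estradiol, and the arrays of each neighbouring pair overlapped.

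The receptor Kdr was lower in every hypoxic group and lowest with estradiol. Kdr (probe set 10940650) read 12.25, 12.21, 12.25 and 12.18 in normoxia and 12.00, 11.92, 11.98 and 12.05 in hypoxia. In the estradiol group it was 11.85, 11.74, 11.46 and 11.87, and in the fulvestrant group 12.00, 12.03, 12.02 and 11.95. The estradiol arrays lay below all 12 others, and the normoxia arrays above all 12 others. Against normoxia Kdr fell 1.40-fold in the estradiol group (log2 -0.49, SE 0.07, adjusted p = 0.00124), a call made in all 8 fits that left out 1 array. The steps between did not pass: hypoxia against normoxia was -0.23 (SE 0.07, adjusted p = 0.079), estradiol against hypoxia -0.26 (adjusted p = 0.114) and fulvestrant against estradiol 0.27 (adjusted p = 0.11). Without estradiol replicate 4 the last pair passed, with adjusted p = 0.049 against hypoxia and 0.0439 for fulvestrant against estradiol. Calls over all genes also rose without that array, from 112 to 355 and from 7 to 331. With array weights hypoxia against normoxia passed (0.0263). The fulvestrant group against normoxia was -0.22 (0.141), which passed with only the compared groups (0.0365) and with array weights (0.0439). The fulvestrant group and hypoxia differed by 0.011 (95% confidence interval -0.15 to 0.17).

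Flt1, the other receptor of Vegfa and the receptor of Pgf, was also lower than normoxia but was not lowest with estradiol. Flt1 (probe set 10756418) read 12.00, 11.79, 11.92 and 11.96 in normoxia and 11.58, 11.82, 11.73 and 11.56 in hypoxia. It was 11.61, 11.76, 11.50 and 11.67 with estradiol and 11.52, 11.65, 11.45 and 11.51 with fulvestrant. The estradiol and fulvestrant arrays lay below all normoxia arrays, while hypoxia replicate 2 overlapped them. Against normoxia Flt1 fell by 0.39 on the log2 scale in the fulvestrant group (SE 0.07, adjusted p = 0.00794), a call made in all 8 fits that left out 1 array and lost with normoxia replicate 4 read as hypoxia (0.0846). It fell by 0.28 in the estradiol group (adjusted p = 0.0391), a call lost without normoxia replicate 1 (0.117), 3 (0.0743) or 4 (0.0814) or estradiol replicate 1 (0.0753) or 3 (0.115), and with normoxia replicate 4 read as hypoxia (0.139). It was also lost with centring (0.0541), p adjusted over all probe sets (0.0647), only the compared groups (0.110), array weights (0.0807), and estradiol replicates 2 and 3 left out (0.133). Hypoxia alone gave -0.25 (adjusted p = 0.0665), which passed without hypoxia replicate 2 (0.0487) and with an intensity trend (0.0499). The probe set summarises the gene, so the membrane and the soluble form of Flt1 were not told apart. Within each array Kdr minus Flt1, set against its normoxia mean, ran from -0.34 to -0.062 with estradiol, from -0.20 to 0.19 in hypoxia and from 0.073 to 0.27 with fulvestrant. In normoxia it ran from -0.084 to 0.11, which overlapped each of these ranges.

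**Figure D2:**
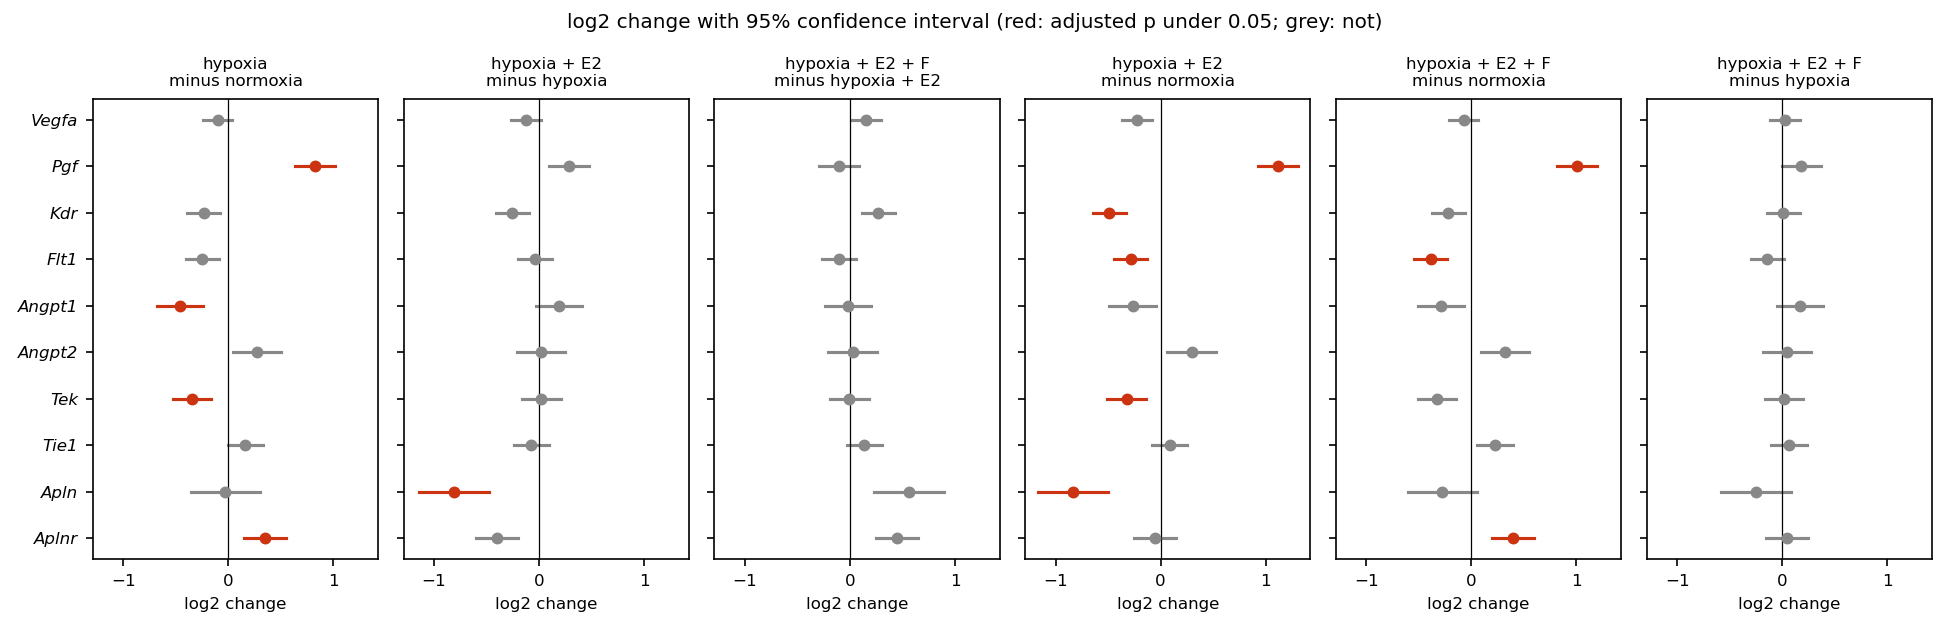
log2 change (horizontal axis) of each gene in the 6 pairs of groups, with its 95% confidence interval; red marks an adjusted p under 0.05 and grey the rest, E2 is estradiol and F fulvestrant. Pgf is red in the 3 comparisons with normoxia, Apln is red for estradiol against hypoxia and against normoxia, and in the last panel every interval crosses 0.

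In the angiopoietin system the ligand of quiescence and its receptor were lower in hypoxia. Angpt1 (probe set 10903529) read 10.80, 10.39, 10.47 and 10.39 in normoxia and 10.06, 10.08, 9.92 and 10.16 in hypoxia. Hypoxia lowered it 1.37-fold (log2 -0.46, SE 0.10, adjusted p = 0.016), and the groups did not overlap. Leaving out normoxia replicate 1, the highest array, ended the call (log2 -0.36, adjusted p = 0.0561), as did reading normoxia replicate 4 as hypoxia (0.107). With estradiol Angpt1 read 10.40, 10.18, 10.33 and 10.08 and with fulvestrant 10.36, 10.37, 10.05 and 10.12. Both groups overlapped hypoxia, the fulvestrant group lay just below normoxia, and neither passed against hypoxia (0.19 and 0.17, SE 0.10, adjusted p = 0.382 and 0.792) or normoxia (-0.27 and -0.29, adjusted p = 0.171 and 0.177).

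Tek (probe set 10869946), the receptor of both angiopoietins, was also lower in hypoxia, and its arrays overlapped across the 3 hypoxic groups. It read 12.41, 12.16, 12.11 and 12.39 in normoxia and 11.74, 11.97, 12.08 and 11.89 in hypoxia. The estradiol arrays read 11.89, 12.01, 11.81 and 12.07 and the fulvestrant arrays 11.98, 11.96, 11.95 and 11.86. All 12 hypoxic arrays lay below the lowest normoxia array. Hypoxia lowered Tek 1.27-fold (log2 -0.35, SE 0.09, adjusted p = 0.0269). Leaving out normoxia replicate 1 (adjusted p = 0.099) or 4 (0.0753) ended this call, and so did leaving out hypoxia replicate 1 (0.0978), 2 (0.0511) or 4 (0.0628) or reading normoxia replicate 4 as hypoxia (0.400) or fitting only the compared groups (0.0809). Against normoxia the estradiol group was lower by a similar amount (log2 -0.32, adjusted p = 0.0399), a call lost without normoxia replicate 1 (0.126), 2 (0.0521) or 4 (0.0977) or estradiol replicate 1 (0.0835), 2 (0.0589) or 3 (0.115), and with normoxia replicate 4 read as hypoxia (0.236). It was also lost with centring (0.0601), p adjusted over all probe sets (0.0662), only the compared groups (0.135), array weights (0.0826), and estradiol replicates 2 and 3 left out (0.207). The fulvestrant group did not pass (-0.33, adjusted p = 0.0514). It passed without normoxia replicate 3 (0.0322), with a second quantile normalization (0.0405), without the dimmest genes (0.0418), with an intensity trend (0.0330) and with array weights (0.0242). Estradiol and hypoxia differed by 0.022 (95% confidence interval -0.16 to 0.20).

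With all arrays Angpt2 and Tie1 did not pass in any of the 6 comparisons, and their differences from normoxia were opposite in sign to those of Angpt1 and Tek. Angpt2 (probe set 10789291) ranged over 8.64 to 8.78 in normoxia, 8.93 to 9.09 in hypoxia, 8.56 to 9.21 with estradiol and 8.93 to 9.10 with fulvestrant. Hypoxia and fulvestrant did not overlap normoxia, but the differences of 0.27 and 0.32 (SE 0.11) had adjusted p = 0.16 and 0.147. With only the compared groups both passed (0.0434 and 0.0183), and the fulvestrant difference passed with array weights (0.0476). Estradiol replicate 3, at 8.56, was the lowest of all 16 arrays; without it estradiol against normoxia was 0.44 (adjusted p = 0.00128), and with it 0.29 (0.148). Within each array Angpt2 minus Angpt1, set against its normoxia mean, ran from -0.36 to 0.18 in normoxia and from 0.58 to 0.86 in hypoxia. It ran from 0.031 to 0.93 with estradiol and from 0.37 to 0.85 with fulvestrant, so these 2 hypoxic groups overlapped hypoxia alone. Tie1 (probe set 10879278) ranged over 11.19 to 11.40 in normoxia, 11.36 to 11.60 in hypoxia, 11.17 to 11.53 with estradiol and 11.49 to 11.59 with fulvestrant. Its largest difference was 0.22 for fulvestrant against normoxia (SE 0.08, adjusted p = 0.164), where the arrays did not overlap.

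Apln was the only member to pass for estradiol against hypoxia, although Kdr and Aplnr were also lower there without overlap. Apln (probe set 10939564) read 10.53, 10.48, 10.40 and 10.39 in normoxia and 10.73, 10.51, 10.10 and 10.33 in hypoxia, so that these groups overlapped (-0.028, SE 0.16, adjusted p = 0.946). With estradiol it read 9.96, 9.87, 9.26 and 9.36, below every other array of the study. With fulvestrant it read 9.99, 10.18, 10.44 and 10.10, above every estradiol array and partly within the range of hypoxia. Estradiol lowered Apln 1.75-fold against hypoxia (log2 -0.81, SE 0.16, adjusted p = 0.0362) and 1.78-fold against normoxia (log2 -0.84, SE 0.16, adjusted p = 0.0064). The call against normoxia was made in all 8 fits that left out 1 array. The call against hypoxia was lost without hypoxia replicate 1 (0.113), 2 (0.0779) or 4 (0.0679), without estradiol replicate 2 (0.0586) or 3 (0.0933), without both of these estradiol arrays (log2 -0.76, 0.218), and with normoxia replicate 4 read as hypoxia (0.0654). It was also lost with only the 2 compared groups in the fit (0.188), with p adjusted over all probe sets (0.0677) and with array weights (0.0637). Fulvestrant against estradiol was 0.56 (SE 0.16, adjusted p = 0.112, 1.47-fold), and fulvestrant against hypoxia was -0.25 (95% confidence interval -0.58 to 0.084).

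The apelin receptor differed in the same direction with estradiol, from a level that hypoxia had raised. Aplnr (probe set 10837424) read 11.51, 11.71, 11.64 and 11.39 in normoxia and 11.89, 11.78, 11.84 and 12.15 in hypoxia. With estradiol it read 11.40, 11.45, 11.47 and 11.74, and with fulvestrant 11.93, 11.88, 12.09 and 11.95. The estradiol arrays overlapped normoxia and lay below hypoxia, and the fulvestrant arrays overlapped hypoxia and lay above normoxia. Hypoxia raised Aplnr 1.27-fold (log2 0.35, SE 0.09, adjusted p = 0.0433). Leaving out normoxia replicate 1 (0.121), 3 (0.0512) or 4 (0.113) ended the call, and so did leaving out hypoxia replicate 1 (0.0926) or 4 (0.117) or reading normoxia replicate 4 as hypoxia (0.50). It also ended with p adjusted over all probe sets (0.0631), only the compared groups (0.0865) and array weights (0.0607). Estradiol against hypoxia was -0.40 (SE 0.09, adjusted p = 0.0616) and fulvestrant against estradiol 0.45 (SE 0.09, adjusted p = 0.0638), and neither passed with all arrays. Both passed without estradiol replicate 4, the highest estradiol array (0.0223 and 0.0137), and with an intensity trend in the fit (0.0477 and 0.0478), and the first also with a second quantile normalization (0.0492). Leaving out estradiol replicate 4 also raised the calls over all genes, from 112 to 355 and from 7 to 331. Fulvestrant against normoxia passed (log2 0.39, adjusted p = 0.0336), but not without normoxia replicate 1 (0.0966) or 4 (0.102), or fulvestrant replicate 1 (0.0666), 2 (0.0519), 3 (0.119) or 4 (0.0796), nor with normoxia replicate 4 read as hypoxia (0.286) or p adjusted over all probe sets (0.0569). Apln minus Aplnr within each array, set against its normoxia mean, was below 0 in all 12 hypoxic arrays, from -1.26 to -0.32 with estradiol, -0.83 to -0.53 with fulvestrant and -0.70 to -0.035 in hypoxia. The normoxia arrays ran from -0.12 to 0.13, so hypoxia overlapped them, while the estradiol and fulvestrant arrays lay below.

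**Figure D3:**
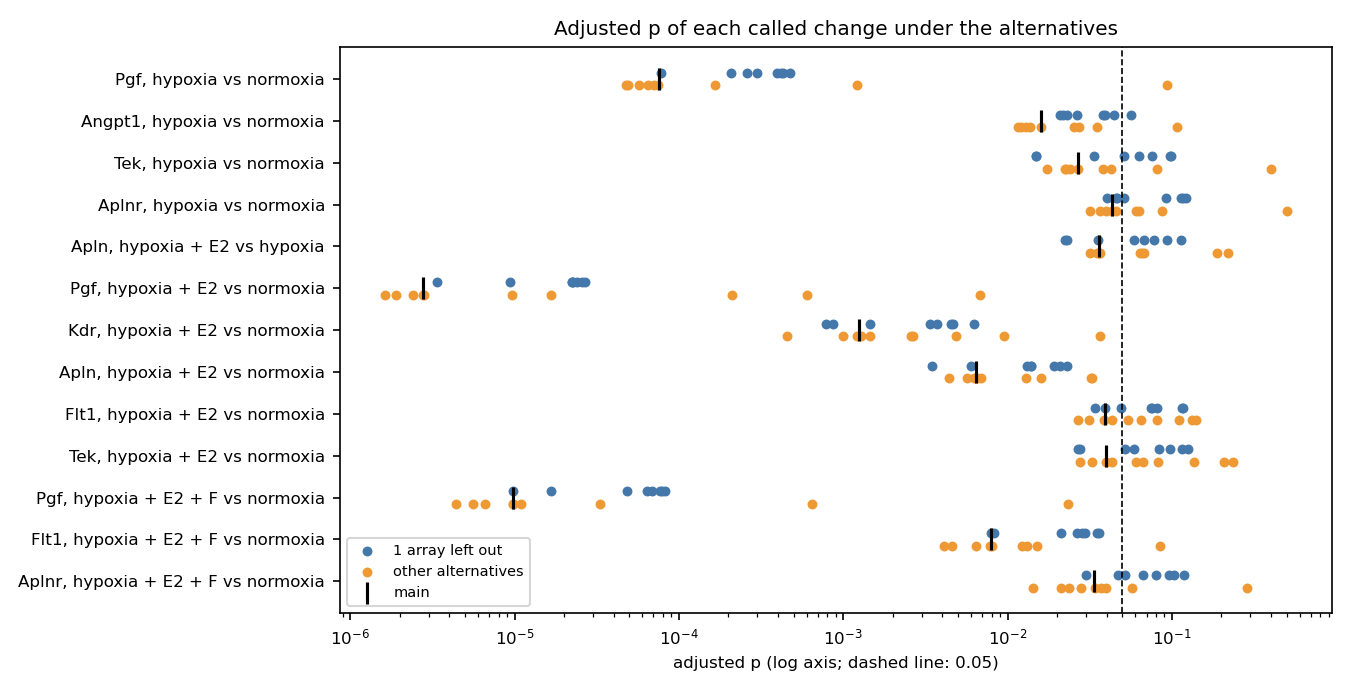
Adjusted p (horizontal log axis, dashed line at 0.05) of each member change that passed, with all arrays (black bars), with 1 array left out (blue points) and under the other alternatives (orange points); E2 is estradiol and F fulvestrant. The Pgf, Kdr and Apln calls against normoxia and the Flt1 call of the fulvestrant group keep every blue point left of the line, while the other calls have blue points on the right.

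The other genes of these pathways came from lists drawn up by gene name. Over all genes 5.63% passed in hypoxia, 0.772% for estradiol against hypoxia and 0.0483% for fulvestrant against estradiol. These shares stand beside every list count below, those of the marker lists included. Of 7 further VEGF ligands, receptors and co-receptors (Vegfb, Vegfc, Vegfd, Flt4, Nrp1, Nrp2 and Mcam) 0 passed by limma in any of the 3 main comparisons, and their median log2 change was 0.11 in hypoxia, where that of all genes was 0.026. At an unadjusted p under 0.05 there was 1 in hypoxia, Vegfc (log2 0.23, limma adjusted p = 0.12), and 1 for fulvestrant against estradiol, Nrp1 (0.17, limma adjusted p = 0.271). Of 6 measured genes of angiopoietin and Tie signalling, 1 rose in hypoxia and 2 fell. The adaptor Dok2, which binds activated Tek, fell (log2 -0.45, SE 0.09, adjusted p = 0.0107). Foxo1, the transcription factor that Tek signalling restrains and that drives Angpt2, fell by 0.29 (adjusted p = 0.0298). The adaptor Grb14 rose (0.67, adjusted p = 0.0215). Of 5 measured genes of apelin signalling and breakdown 1 rose in hypoxia, Nos3, the endothelial nitric oxide synthase (0.59, SE 0.08, adjusted p = 0.00033), and 0 fell. In estradiol against hypoxia and in fulvestrant against estradiol 0 genes of either list passed.

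Among 16 genes of the endothelial response to VEGF, Dll4, the Notch ligand of sprouting tip cells, fell both in hypoxia and with estradiol. It was lower in hypoxia (log2 -0.96, SE 0.11, adjusted p = 9.23e-05) and lower again with estradiol (-0.53, SE 0.11, adjusted p = 0.0362), and reached -1.49 against normoxia in the estradiol group (adjusted p = 8.58e-07). With fulvestrant it was higher than with estradiol by 0.28, which did not pass (adjusted p = 0.235). Jag1, a Notch ligand that competes with Dll4, rose in hypoxia (0.32, adjusted p = 0.00709). With estradiol the Notch target Hey2 (-0.99, adjusted p = 0.0362) and the semaphorin receptor Plxnd1 (-0.36, adjusted p = 0.0497) also fell. In all, 1 of these 16 rose and 1 fell in hypoxia, 0 rose and 3 fell with estradiol, and 0 passed for fulvestrant against estradiol. The 3 calls of estradiol against hypoxia ended with estradiol replicates 2 and 3 left out, where 0 of all genes passed. Other alternatives were read gene by gene for the 10 members only. Of 7 measured angiogenesis inhibitors 2 rose in hypoxia, Adamts1, a protease that binds VEGF (0.93, SE 0.16, adjusted p = 0.00221), and Serpinf1, pigment epithelium-derived factor (1.06, SE 0.27, adjusted p = 0.0343). None of the 7 fell in hypoxia by limma, and 0 passed in the other main comparisons.

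Vegfa and Apln did not pass in hypoxia, and most of 15 listed genes of oxygen sensing and its targets did not pass either. In hypoxia 3 of the 15 passed by limma (2 higher, 1 lower), where 5.63% of all genes did (3.21% higher, 2.43% lower). The median log2 change of the list was 0.0070, where that of all genes was 0.026. Of these 15, the mitophagy gene Bnip3 (0.72, adjusted p = 0.000264) and the glucose transporter Slc2a1 (0.68, adjusted p = 0.00435) rose in hypoxia. Epas1, the endothelial hypoxia-inducible factor subunit, fell (-0.23, SE 0.06, adjusted p = 0.025), and the other 12 did not pass. With estradiol Hif3a rose (0.96, SE 0.19, adjusted p = 0.0362) and 0 fell, and for fulvestrant against estradiol 0 passed. The Hif3a call ended with estradiol replicates 2 and 3 left out, where 0 of all genes passed.

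Since most of these genes belong to endothelium, the marker lists of vessel cells were read beside them. Of 13 measured pan-endothelial genes 3 rose in hypoxia, Robo4 (0.80), Egfl7 (0.73) and Emcn (0.69), and 1 fell, Clec14a (-0.60), with a median log2 change of 0.070. With estradiol 0 rose and 1 fell, Robo4 (-0.39), with a median of -0.10. Their mean above normoxia ran from -0.040 to 0.050 in normoxia, 0.050 to 0.20 in hypoxia, -0.22 to 0.15 with estradiol and 0.11 to 0.16 with fulvestrant. Summed on the linear scale the same list ranged over 47890 to 51720, 49290 to 54484, 43004 to 53501 and 51348 to 52765 in these groups. The lowest gene of the list in any array stood at 8.69, above the array medians of 7.69 to 7.77. For 7 measured aerocyte markers, with Apln left out, the summed signal was 14711 to 16177 in normoxia, 12859 to 13908 in hypoxia, 10664 to 12664 with estradiol and 13207 to 13805 with fulvestrant. Of these markers 1 fell in hypoxia, Cyp4b1 (-0.31), and 1 fell with estradiol, Car4 (-0.33). The estradiol arrays lay below all others on this sum, as they did for Apln and Kdr. The normoxia arrays lay above all others, as they did for Kdr, whereas Apln overlapped between normoxia and hypoxia. The mean log2 level of the list with estradiol overlapped that in hypoxia (-0.31 to -0.15 with estradiol, -0.22 to -0.0036 in hypoxia). The part of these cells in the Apln and Kdr results was not tested. For 6 measured general capillary markers, with Aplnr left out, the sums of all 4 groups overlapped, at 22606 to 25298, 23537 to 24656, 21387 to 25625 and 23697 to 25512. In hypoxia Gpihbp1 (0.86) and Sema3c (0.37) rose and Plvap fell (-0.83), and 0 of the 6 passed with estradiol.

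**Figure D4:**
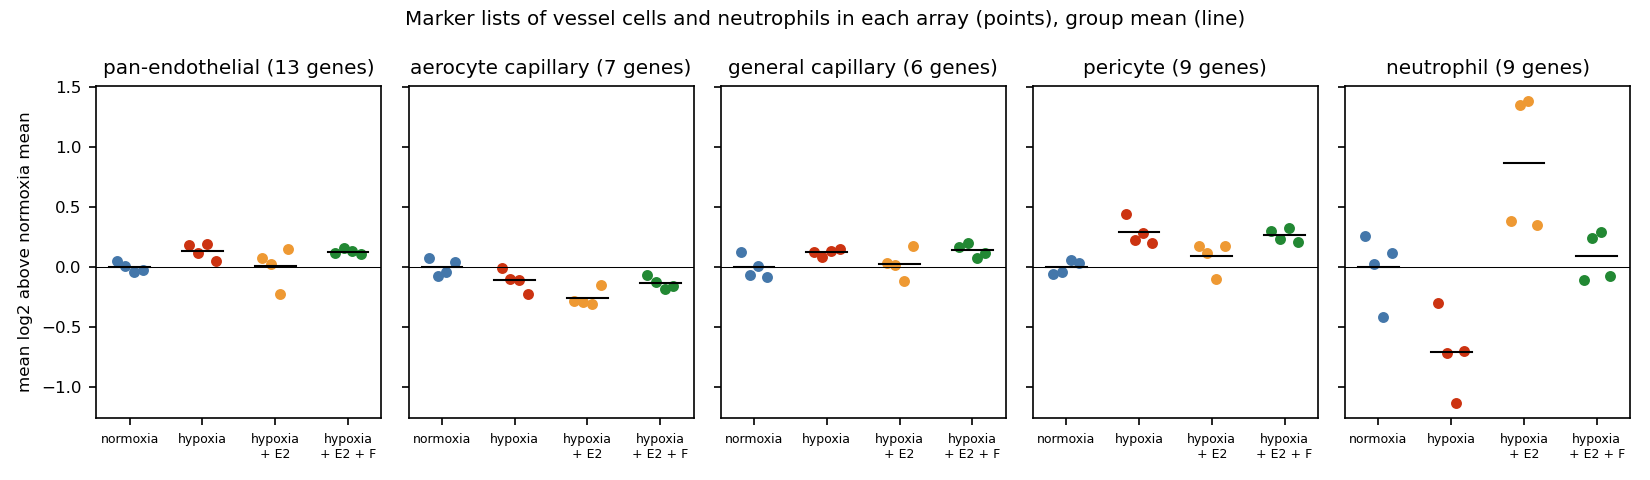
Mean log2 level above the normoxia mean (vertical axis) of 5 marker lists in each array (points) by group, with the group mean (line); E2 is estradiol and F fulvestrant. The pan-endothelial points stay between -0.22 and 0.20, the aerocyte points of the estradiol group lie between -0.31 and -0.15, and the neutrophil points of that group lie between 0.35 and 1.39, above all others.

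Neutrophil genes moved with the estradiol group. Of 9 markers, chosen with their behaviour in these arrays known and so no independent evidence, 8 rose with estradiol and 0 fell, and the median was 1.61. Against normoxia the median of the estradiol group was 0.76 and that of hypoxia -0.72. Their mean above normoxia was -0.41 to 0.26 in normoxia, 0.35 to 1.39 with estradiol, -1.13 to -0.29 in hypoxia and -0.10 to 0.30 with fulvestrant. Estradiol replicates 2 and 3, apart on the second principal component, stood at 1.35 and 1.39, and replicates 1 and 4 at 0.39 and 0.35. The part of neutrophils in the Apln, Aplnr and Kdr values was not tested. Of 9 pericyte markers 3 rose in hypoxia, Trpc6 (0.66), Cspg4 (0.42) and Pdgfrb (0.28), and 0 fell (median 0.28), and 0 rose and 2 fell with estradiol, Rgs5 (-0.76) and Pdgfrb (-0.35). Pericytes are a source of angiopoietin-1, and their part in the Angpt1 result was not tested. Of 8 smooth muscle markers 3 rose in hypoxia, Des (0.75), Cnn1 (0.62) and Smtn (0.60), and 0 fell. Of 7 artery markers Cxcl12 (0.75) and Gja4 (0.52) rose and Efnb2 fell (-0.77). Of 6 measured lymphatic markers Ccl21 (1.09), Reln (0.56) and Prox1 (0.48) rose and Lyve1 fell (-2.23), and of 4 measured vein markers 0 passed (median 0.11). Of 8 alveolar type 1 markers 1 fell, Hopx (-0.22), and 0 of 8 type 2 markers and 0 of 8 measured proliferation genes passed in hypoxia (medians -0.092, -0.076 and 0.31). None of these 7 lists had a call by limma in the other main comparisons.

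Members were also compared by their pattern over the 16 arrays, which share group differences, so that these correlations are descriptions. Flt1 and Tek had Pearson r = 0.83, and 0.66 after group means were subtracted. For Vegfa and Kdr r was 0.80, and 0.49 within groups. Angpt2 and Tie1 had r = 0.82, and 0.80 within groups. Estradiol replicate 3 weighed on the values within groups and held the lowest value of Vegfa, Kdr, Angpt2, Tie1 and Apln in the study. Over the 15 arrays without it the correlation within groups was 0.48 for Angpt2 and Tie1, -0.31 for Vegfa and Kdr and 0.61 for Flt1 and Tek. For Kdr and Angpt2 it was 0.81 with that array and 0.028 without it.

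The genes most like each member that passed in a main comparison were taken by the highest r over the 16 arrays. For Pgf these were Sgk1 (r = 0.95, and 0.16 within groups), Slc26a10 (0.94, 0.33) and the Wnt antagonist Frzb (0.94, 0.42), so their likeness lay mostly between groups. Angpt1 was closest to Sash3 (0.88, 0.80), Kcnab2 (0.87, 0.64) and Ikzf1 (0.86, 0.63). Of these Sash3 and Ikzf1 are lymphocyte genes. Tek was closest to Epas1 (0.91, 0.73), Phactr2 (0.90, 0.81) and Rtkn2 (0.89, 0.76), Apln to Tmem255a (0.88, 0.80), Thnsl2 (0.86, 0.45) and Vtn (0.85, 0.58), and Aplnr to Dpagt1 (0.91, 0.77), Rnf144a (0.90, 0.71) and Arl2 (0.89, 0.76).

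In the order of group means, few neighbouring groups were separated. For Pgf normoxia was apart from the 3 hypoxic groups, which overlapped their neighbours in the order estradiol, fulvestrant, hypoxia. For Tek normoxia was apart and the rest overlapped. For Aplnr the fulvestrant and hypoxia groups overlapped at the top, and normoxia and estradiol overlapped below them. For Apln the estradiol group was apart at the bottom, below overlapping normoxia, hypoxia and fulvestrant groups. For Kdr normoxia was apart at the top and estradiol at the bottom, with fulvestrant and hypoxia overlapping between. For Angpt2 normoxia had the lowest mean and was apart from hypoxia, its neighbour in the order, but not from the estradiol group, whose replicate 3 lay below all normoxia arrays. For Vegfa, Flt1, Angpt1 and Tie1 all neighbours overlapped. Each rat is a separate sample. The p-values test a difference of group means against the spread between rats. That spread was pooled over the 4 groups and drawn towards that of other genes.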

How the data were processed

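RNA of 16 rat lungs was measured on 1 array each, from RNA with an integrity number of at least 9. The authors deposited log2 values per probe set, made with RMA in Partek per the submitters' processing notes, whose versions and genome build are not given in the sources used here. RMA corrects background and forces arrays to one distribution, so a shift shared by all genes would not be seen and large changes tend to be compressed. Of 29214 probe sets, 15310 carried 1 gene symbol in the platform annotation, 323 several and 13581 none. The single-symbol probe set with the highest mean was kept for each of 14506 genes, of which 14480 matched a RefSeq gene. All 4 group means were fitted in 1 linear model with limma 3.58.1 in R 4.3.3 (lmFit, eBayes), checked on simulated data, and p-values were adjusted by Benjamini-Hochberg over all genes, with a threshold of 0.05. The number of arrays limits the precision. Columns of per-sample values left unused numbered 0.

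All 10 members are named in every group, from other pathway lists the genes that passed (at most 4 per list and comparison), from marker lists those that passed in the endothelial lists or on which a small count rests, and for each member that passed in a main comparison the 3 most correlated genes. The members, lists and tests were chosen with earlier results of these data known. Each array is a separate rat per the labels. Alternatives were centring, a second quantile normalization, a filter on dim genes, the mean of probe sets, adjustment over all probe sets, a fit on only the compared groups, an intensity trend, array weights, normoxia replicate 4 as hypoxia, estradiol replicates 2 and 3 left out, and each array left out in turn.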

Additional observations from a re-analysis of the deposited data

Results flagged for a closer look

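Estradiol replicate 3 had an Angpt2 level of 8.558, while the other estradiol arrays read 9.10, 9.16 and 9.21. Its gap to the nearest of them, divided by the range of the group, was above Dixon's 95% critical value for 4 arrays. The test was made in 40 sets of 4 arrays (10 genes in 4 groups), in which chance alone gives about 1 in 20, or 2, and it found 1.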

How the results depend on the processing

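No paired analysis was possible because replicates were numbered in accession order, so that a shared number links no rats. The count of members called against 4 (hypoxia against normoxia), 1 (estradiol against hypoxia), 0 (fulvestrant against estradiol), 5 (estradiol against normoxia), 3 (fulvestrant against normoxia) and 0 (fulvestrant against hypoxia) moved by over 1.5 times as follows. For estradiol against normoxia it was 3 with centring, adjustment over all probe sets, only the compared groups, array weights, or normoxia replicate 4 as hypoxia. For estradiol against hypoxia it was 2 with a second quantile normalization or an intensity trend, and 0 with adjustment over all probe sets, only the compared groups, array weights, normoxia replicate 4 as hypoxia, or estradiol replicates 2 and 3 left out. For fulvestrant against estradiol it was 1 with the trend. For fulvestrant against normoxia it was 5 with only the compared groups, 6 with array weights and 1 with normoxia replicate 4 as hypoxia, and for hypoxia against normoxia 0 with that array as hypoxia. Smaller moves were, for hypoxia against normoxia, 3 with adjustment over all probe sets or only the compared groups and 5 with the trend. For estradiol against normoxia they were 6 without the dimmest genes or with the trend and 4 without estradiol replicates 2 and 3. For fulvestrant against normoxia they were 2 with adjustment over all probe sets and 4 with a second quantile normalization, without the dimmest genes or with the trend. With 1 array left out the counts ran from 1 to 4 (hypoxia against normoxia), 0 to 3 (estradiol against hypoxia), 0 to 2 (fulvestrant against estradiol), 3 to 5 (estradiol against normoxia), 2 to 4 (fulvestrant against normoxia) and 0 to 0 (fulvestrant against hypoxia).

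Over all genes, estradiol against hypoxia gave 112 calls, and 4 with adjustment over all probe sets, 5 with only the compared groups, 4 with array weights, and 0 with normoxia replicate 4 as hypoxia or estradiol replicates 2 and 3 left out. Where 0 genes passed, every call of this comparison named above ended, for members, other pathway genes and markers. Otherwise the alternatives were read gene by gene for the members only. Fulvestrant against estradiol gave 7, and 44 with the trend. Without estradiol replicate 4, estradiol against hypoxia gave 355 and fulvestrant against estradiol 331. With normoxia replicate 4 as hypoxia, 817 fell to 40 for hypoxia against normoxia, 756 to 351 for estradiol against normoxia and 430 to 100 for fulvestrant against normoxia. With only the compared groups 756 became 216, and with array weights 756 became 504 and 430 became 786. The cause was not tested.

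Of 560 member values under these alternatives, 507 kept direction and side of the threshold, 28 lost and 17 gained a call and 8 changed sign, none of them called. These were Kdr for fulvestrant against hypoxia (-0.0035 with centring, -0.027 with normoxia replicate 4 as hypoxia), Tek for estradiol (-0.072) and fulvestrant (-0.076) against hypoxia with that array as hypoxia, and Apln in hypoxia (0.00056 with array weights). Without estradiol replicates 2 and 3 they were Tie1 against hypoxia (0.033), Angpt2 for fulvestrant against estradiol (-0.12) and Aplnr against normoxia (0.0011). With 1 array left out 20 of 480 changed sign: in hypoxia against normoxia Apln (-0.13 to 0.078); in estradiol against hypoxia Angpt2 (-0.048 to 0.17), Flt1 (-0.078 to 0.011), Tek (-0.037 to 0.075) and Tie1 (-0.12 to 0.0059). In fulvestrant against estradiol these were Angpt1 (-0.077 to 0.036), Angpt2 (-0.12 to 0.094) and Tek (-0.048 to 0.038), and in fulvestrant against hypoxia Kdr (-0.012 to 0.033) and Tek (-0.040 to 0.071).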
